A study of Mus musculus with 3 samples.

Results

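The 9 genes described here, Isl1, Tbx1, Fgf8, Fgf10, Six2, Eya1, Foxc1, Foxc2 and Sema3c, were chosen by name as regulators of the second heart field, out of 51923 genes measured in 14777 single cells of mouse embryos. Every one of the 9 was present in the count matrix. They were followed in 22 barcode samples, a barcode sample being all cells that share a sequencing run and a lipid tag (MULTI-seq) added before pooling. The embryos were C57BL/6 and carried Mesp1-Cre, which recombines in early mesoderm, and Ai9, a reporter that turns recombined cells red. Controls were Wls fl/+ and so lacked 1 Wls allele in the same cells. Mutants were Wls fl/fl. Wls encodes a membrane protein that Wnt-producing cells need to secrete Wnt ligands. Only sorted red cells were sequenced, so cells outside the Mesp1 lineage are largely missing. There were 3 control and 3 mutant samples at E8.0, 2 control and 1 mutant sample at E8.5, and 6 control and 6 mutant samples at E9.5. A further control sample of 28 cells was labelled E7.5 and entered no stage comparison. Whether a barcode held 1 embryo or several is not stated, so p-values measure the spread between barcode samples.

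The second heart field is a pool of mesodermal progenitors next to the early heart tube, from which cells are added to the outflow tract and right ventricle at one pole and to the atria at the other. Isl1, a LIM-homeodomain transcription factor, marks these progenitors. Tbx1, a T-box factor of the pharyngeal mesoderm, maintains them and is a gene of DiGeorge syndrome. Fgf8 and Fgf10 are secreted growth factors made by them. Six2 and Eya1 belong to the SIX-EYA network, in which a homeodomain factor acts with a phosphatase coactivator. Foxc1 and Foxc2 are related forkhead factors of the paraxial and cranial mesoderm that also act in the outflow tract. Sema3c is a secreted semaphorin that guides neural crest cells into the outflow tract.

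The start regions of 4 members are shown because the results below turn on them: Isl1 is the gene that the others are compared with in single cells, Six2 and Foxc1 had lower levels in mutants at E9.5, and Fgf10 held the only motif match. Each sequence is the 250 bases before the RefSeq start on GRCm38.p6, written 5′ to 3′ on the gene's strand, and capitals mark a motif match.
Isl1 (chr13:116309689-116309938, minus strand): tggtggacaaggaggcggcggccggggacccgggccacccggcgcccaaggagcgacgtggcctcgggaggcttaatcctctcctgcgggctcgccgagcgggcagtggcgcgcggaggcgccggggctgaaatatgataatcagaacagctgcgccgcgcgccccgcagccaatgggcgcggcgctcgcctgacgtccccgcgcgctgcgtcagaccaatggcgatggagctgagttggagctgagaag
Six2 (chr17:85688255-85688504, minus strand): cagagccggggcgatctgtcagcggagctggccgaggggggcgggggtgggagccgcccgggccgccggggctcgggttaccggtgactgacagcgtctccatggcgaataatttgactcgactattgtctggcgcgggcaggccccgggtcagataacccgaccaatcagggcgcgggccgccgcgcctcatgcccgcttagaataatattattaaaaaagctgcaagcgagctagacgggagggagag
Foxc1 (chr13:31806396-31806645, plus strand): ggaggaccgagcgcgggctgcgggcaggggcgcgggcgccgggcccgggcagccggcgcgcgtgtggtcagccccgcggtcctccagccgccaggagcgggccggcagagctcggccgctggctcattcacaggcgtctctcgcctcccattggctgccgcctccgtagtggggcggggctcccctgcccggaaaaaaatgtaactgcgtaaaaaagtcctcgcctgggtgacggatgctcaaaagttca
Fgf10 (chr13:118714449-118714698, plus strand): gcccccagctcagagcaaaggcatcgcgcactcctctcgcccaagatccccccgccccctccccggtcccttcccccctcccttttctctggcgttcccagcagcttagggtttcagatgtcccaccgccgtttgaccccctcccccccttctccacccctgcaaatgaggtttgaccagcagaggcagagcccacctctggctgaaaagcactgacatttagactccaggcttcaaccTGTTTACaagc
The last bases of the Isl1, Six2 and Foxc1 windows lie in the gene as GENCODE M21 draws it, and the Fgf10 window lies inside the longer span that GENCODE M21 gives for Fgf10. RefSeq windows were at hand for 6 of the 9 members, with 2 windows for Tbx1. A total of 4 motifs were searched for on both strands of these 7 windows. The forkhead motif TGTTTAC was found in the Fgf10 window, 11 bases before the start, and it was present in 3.17% of 32851 promoter windows of the same length. The TCF/LEF motif CTTTGAT was present in 3.21% of those windows, the T-box motif AGGTGTGA in 1.12% and the LIM-homeodomain motif CTAATGG in 1.73%, and none of the 3 was in a member's window. The windows were rich in G and C, with 71.2% in Isl1, 70.8% in Foxc1, 64.8% in Six2 and 61.2% in Fgf10 against a median of 52.4% over all windows. Fgf8, Eya1 and Foxc2 are named only.

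The libraries held 331587989 UMIs in all, where a UMI is 1 counted molecule, and a sample held between 134457 and 61307782. The smallest sample, control barcode 6 at E9.5, had 6 cells, and 4 samples had under 60. Cells of runs 1, 2 and 3 had median depths of 23112, 23555 and 11866 UMIs. Runs are numbered here in the order of the deposited samples. Run 1 is the run with the later date in the labels. Runs 2 and 3 share the earlier date, and the labels number them 1 and 2. Run 1 held the E8.0 samples and run 2 the E8.5 samples, while the E9.5 samples were spread over the 3 runs. A cell barcode sequence occurred in more than 1 run 23 times. Wls itself, the targeted gene, was at 35.9 to 65.4 CPM (UMI counts scaled to a fixed total per sample) in the 11 control samples from E8.0 on and at 3.72 to 14.2 CPM in the 10 mutant samples, with no overlap. Since the counts come from transcript ends, they are compared between samples and not between genes.

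Each member was detected, with 1 or more UMI at the cells' own depth, in a minority of cells. Isl1 gave 10199 UMIs in all and was detected in 20.7% of cells, Tbx1 in 21.6%, Fgf8 in 12.9%, Fgf10 in 12.2%, Six2 in 11.5%, Eya1 in 22.4%, Foxc1 in 40.2%, Foxc2 in 30.2% and Sema3c in 11.9%. At least 1 member was detected in 10580 cells. On GRCm38 with GENCODE M21 the genes lie at chr13:116298281-116309689 (Isl1, minus strand), chr16:18580979-18590671 (Tbx1, minus), chr19:45736798-45742915 (Fgf8, minus), chr13:118669791-118792115 (Fgf10, plus), chr17:85684277-85688274 (Six2, minus), chr1:14168954-14310235 (Eya1, minus), chr13:31806633-31812476 (Foxc1, plus), chr8:121116171-121118895 (Foxc2, plus) and chr5:17574281-17730268 (Sema3c, plus). Reads over Foxc2, which lies inside the same-strand readthrough gene Gm20388, over Fgf10, which Gm16263 overlaps on the other strand, and over Eya1, which holds Gm22616 and Gm37444, may have been shared out between genes, and their levels are uncertain to that degree.

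**Figure D1:**
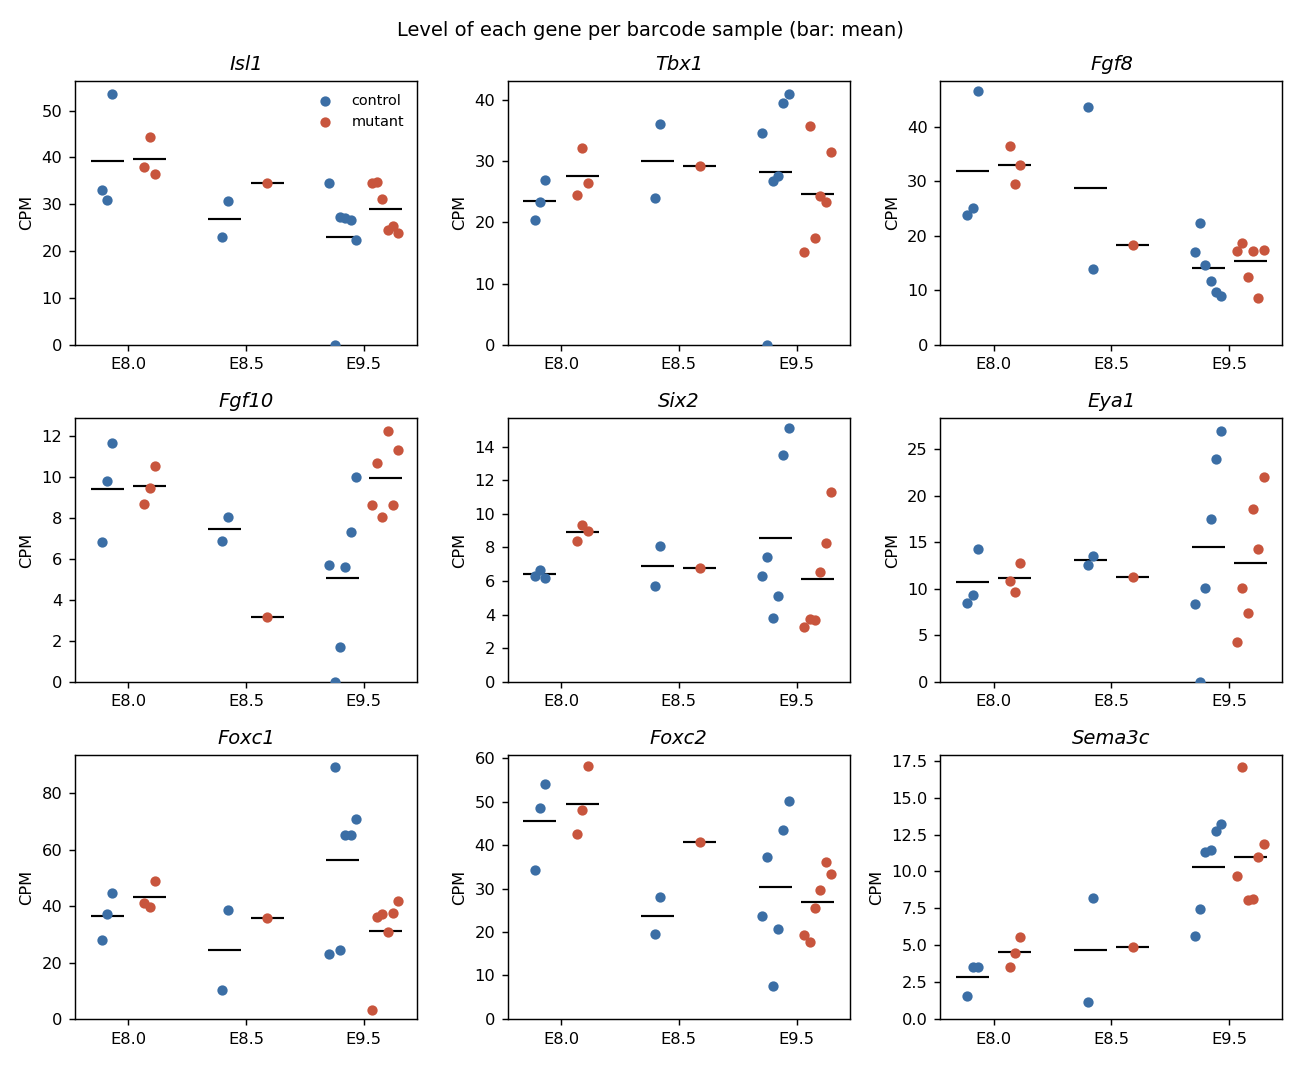
Level of each of the 9 genes in every barcode sample, in CPM (vertical axis, from 0), by stage; blue points are control and red points mutant samples, and black bars are group means. Fgf8 points fall and Sema3c points rise from E8.0 to E9.5, and the point at 0 CPM for Isl1 and Tbx1 at E9.5 is the sample of 6 cells.

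In a fit without run as a term, Sema3c and Eya1 rose and Fgf8 and Foxc2 fell from E8.0 to E9.5, over both genotypes. Thus 4 of the 9 members passed the edgeR test (adjusted p below 0.05) where 22.5% of all 18063 genes did, 12.5% higher and 10.0% lower. Sema3c had the largest difference among the members. It was at 1.53, 3.502 and 3.55 CPM in E8.0 controls and 3.502, 4.44 and 5.58 in E8.0 mutants. At E9.5 it ranged from 5.62 over a median of 11.4 to 13.2 CPM in controls and from 8.05 over 10.3 to 17.1 in mutants. Every E9.5 value was above every E8.0 value, but the nearest pair, 5.62 against 5.58, had overlapping counting intervals, and the 7.44 CPM of control barcode 6 was 1 UMI. The log2 difference was 1.67 (SE 0.24, adjusted p = 4.49e-05, edgeR).

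Fgf8 went the other way. Its levels were 23.8, 25.1 and 46.5 CPM in E8.0 controls and 29.4, 32.9 and 36.4 in E8.0 mutants. E9.5 controls ranged from 8.84 over a median of 13.2 to 22.3 CPM (3 UMIs in the sample of 6 cells) and E9.5 mutants from 8.63 over 17.2 to 18.7. The stages did not overlap, and the log2 difference was -1.11 (SE 0.22, adjusted p = 0.000874, edgeR), with -1.23 and an adjusted p of 0.0643 in control samples alone. Eya1 was higher at E9.5 by 0.65 on the log2 scale (SE 0.22, adjusted p = 0.0362, edgeR) with overlapping stages: 8.45 to 14.3 CPM in E8.0 controls and 9.70 to 12.8 in E8.0 mutants, against 0 to 27.0 in E9.5 controls and 4.31 to 22.05 in E9.5 mutants. Foxc2 was lower by 0.58 on that scale (log2 difference -0.58, SE 0.19, adjusted p = 0.0318, edgeR), at 34.3 to 58.1 CPM over all E8.0 samples and 7.54 to 50.1 over all E9.5 samples.

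The E8.0 samples were all in run 1, while the E9.5 samples lay in all 3 runs, so run could be fitted beside stage. With run as a further term the list changed. Isl1, whose log2 difference was -0.37 (adjusted p = 0.106), reached -0.66 (SE 0.14, adjusted p = 0.00253), and the E8.0 and E9.5 samples of run 1 alone gave -0.66 as well (adjusted p = 0.00251). In run 1, Isl1 was at 30.8 to 53.7 CPM at E8.0 and at 22.3 to 26.7 at E9.5 over both genotypes, with no overlap, whereas E9.5 samples of the other runs reached 34.7. Six2 also passed with run as a term, at 0.53 (adjusted p = 0.0312), and Foxc2 no longer did, at -0.28 (adjusted p = 0.228), nor in run 1 alone (-0.28, adjusted p = 0.121). Isl1 also passed without control barcode 4 (-0.46, adjusted p = 0.0334). Eya1 lost its call when any of 10 single samples was left out (barcodes 24, 26, 25, 27, 3, 9, 22, 23, 19 and 21, adjusted p between 0.0510 and 0.0940), and Foxc2 when any of E8.0 barcodes 26, 29, 27 and 28 was (0.0594, 0.0716, 0.0525 and 0.0777). In control samples alone neither passed (Eya1 0.80, adjusted p = 0.187; Foxc2 -0.51, adjusted p = 0.425). Tbx1, Fgf10 and Foxc1 differed by 0.30, -0.11 and 0.17 on the log2 scale and did not pass.

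Between E8.5 and E8.0 only Sema3c passed (log2 difference 0.95, SE 0.32, adjusted p = 0.0420, edgeR), where 19.0% of genes did and 9.15% were higher, and without the large control barcode 3 the value was 0.18 (adjusted p = 0.846). Sema3c also missed the threshold without any of barcodes 24, 26, 29, 25, 1, 6 and 9 (adjusted p between 0.0502 and 0.0821), with DESeq2 (0.81, adjusted p = 0.0780) and with DESeq2 size factors (0.86, adjusted p = 0.0658, edgeR). With run as a term Sema3c missed it (1.45, adjusted p = 0.198) and Eya1 passed (1.66, adjusted p = 0.0377). The 3 E8.5 samples held Sema3c at 1.15 (1 UMI), 8.22 and 4.87 CPM. No member passed between E9.5 and E8.5, where 0.0332% of genes did.

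Over whole samples Six2, Eya1 and Foxc1 were lower in mutants at E9.5 and passed, 3 of 9 members, while 10.3% of 17227 genes tested passed in either direction and 4.55% were lower. The other 6 members did not pass: Tbx1 had a log2 fold change, mutant over control, of -0.51, Foxc2 of -0.23, Sema3c of -0.15, Isl1 of 0.09, Fgf8 of 0.45 and Fgf10 of 0.53. The median over the 9 members was -0.23.

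Six2 in E9.5 controls ranged from 3.77 over a median of 6.87 to 15.1 CPM and in mutants from 3.23 over 5.14 to 11.3. The ranges overlapped across runs, and within a run they did not. In run 1 the controls were at 13.5 and 15.1 CPM and the mutants at 6.54, 8.24 and 11.3. In run 3 the controls were at 3.77 and 5.13 and the mutants at 3.69 and 3.74, with overlapping counting intervals, and in run 2 the controls were at 6.31 and 7.44 (1 UMI) and the mutant at 3.23 (3 UMIs, 95% counting interval 0.667 to 9.45, which holds both controls). With run as a term the log2 fold change was -0.64 (SE 0.16, adjusted p = 0.0242, edgeR).

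Foxc1 ranged from 23.0 over 65.4 to 89.2 CPM in E9.5 controls and from 3.23 over 36.8 to 42.0 in mutants. The 89.2 was 12 UMIs in the sample of 6 cells (95% counting interval 46.1 to 156), and the 3.23 was 3 UMIs in mutant barcode 5. Without the samples under 60 cells the ranges were 23.0 to 70.8 CPM in controls and 30.9 to 42.0 in mutants. Control barcodes 4 and 7, at 23.0 and 24.3 CPM, lay below 5 of the 6 mutant samples, and the other 4 controls lay above every mutant sample. In run 3, 24.3 and 65.4 CPM in controls stood on either side of 36.3 and 37.2 in mutants. In run 1, 65.4 and 70.8 CPM in controls stood against 30.9, 37.4 and 42.0 in mutants. In run 2, 23.0 and 89.2 CPM in controls stood against 3.23 in the mutant. The log2 fold change was -0.82 (SE 0.21, adjusted p = 0.0257, edgeR), and in run 1 alone it was -0.85 (adjusted p = 0.0219).

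Eya1 ranged from 0 over 13.8 to 27.0 CPM in E9.5 controls and from 4.31 over 12.2 to 22.05 in mutants. The groups overlapped, except in run 1, where controls were at 23.9 and 27.0 and mutants at 14.3, 18.6 and 22.05. The log2 fold change was -0.58 (SE 0.18, adjusted p = 0.0490, edgeR), at the edge of the threshold.

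These calls rested on few samples. Six2 missed the threshold without control barcodes 9, 22 or 23 or mutant barcode 19 (adjusted p = 0.05003, 0.0693, 0.120 and 0.0868, edgeR). Foxc1 missed it without barcodes 9, 22, 23, 10 or 19 (0.0866, 0.0707, 0.0932, 0.0510 and 0.0874). Eya1 missed it without any of barcodes 4, 9, 22, 23, 5, 8, 10, 19 and 20 (from 0.0615 to 0.134), and passed only without barcodes 6, 7 or 21. The direction was the same each time. Eya1 also missed it with DESeq2 size factors (-0.55, adjusted p = 0.0521, edgeR) and without blood-like and endothelium-like cells (-0.53, adjusted p = 0.0592). Without the samples under 60 cells, Six2 (adjusted p = 0.0387) and Foxc1 (0.0226) passed and Eya1 (0.0633) did not. In run 1 alone Six2 was at -0.68 (adjusted p = 0.0851) and Eya1 at -0.43 (0.162), while Foxc2 passed there at -0.46 (0.0438). In run 3 alone none of the 3 passed (Six2 -0.50, Eya1 -0.95, Foxc1 -0.54). With the level of Y-linked genes as a covariate Six2 (0.0676) and Foxc1 (0.0683) missed the threshold.

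Across runs the other 6 members overlapped between genotypes at E9.5, but inside a run some did not. In run 1, Tbx1 was at 39.5 to 41.1 CPM in controls and 23.4 to 31.5 in mutants. Foxc2 was at 43.5 to 50.1 and 29.7 to 36.1 there, and Sema3c at 12.8 to 13.2 and 8.16 to 11.9. In run 2 Sema3c went the other way (5.62 to 7.44 and 9.70). In run 3, Fgf10 was at 1.68 to 5.57 and 8.05 to 10.7. Isl1 was at 27.1 to 27.2 and 31.2 to 34.7 there. Such separation was not particular to Six2, Foxc1 and Eya1. Isl1 ranged from 0 over a median of 26.9 to 34.6 CPM in controls and from 23.9 over 28.3 to 34.7 in mutants. Tbx1 ranged from 0 over 31.1 to 41.1 in controls and from 15.1 over 23.9 to 35.8 in mutants. The controls at 0 are the sample of 6 cells, where 3 UMIs would be 22.3 CPM. Without that sample, barcode 6, Tbx1 passed (log2 fold change -0.52, adjusted p = 0.0427, edgeR), and so it did without mutant barcode 8 (-0.65, adjusted p = 0.0317) and with no filter on low counts (0.00073). In the fit without all samples under 60 cells, which leaves out barcodes 5 and 6, Tbx1 did not pass.

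Fgf8 and Fgf10, the 2 FGF ligands, had positive log2 fold changes that did not pass. Fgf10 ranged from 0 over 5.63 to 9.98 CPM in controls and from 8.05 over 9.65 to 12.2 in mutants. Without mutant barcode 20, Fgf8 (0.66, adjusted p = 0.0213, edgeR) and Fgf10 (0.67, adjusted p = 0.0343) both passed, and Fgf10 passed with DESeq2 (0.61, adjusted p = 0.0469) and without blood-like and endothelium-like cells (0.57, adjusted p = 0.04997, edgeR). Foxc2 ranged from 7.54 over 30.4 to 50.1 CPM in controls and from 17.6 over 27.6 to 36.1 in mutants.

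**Figure D2:**
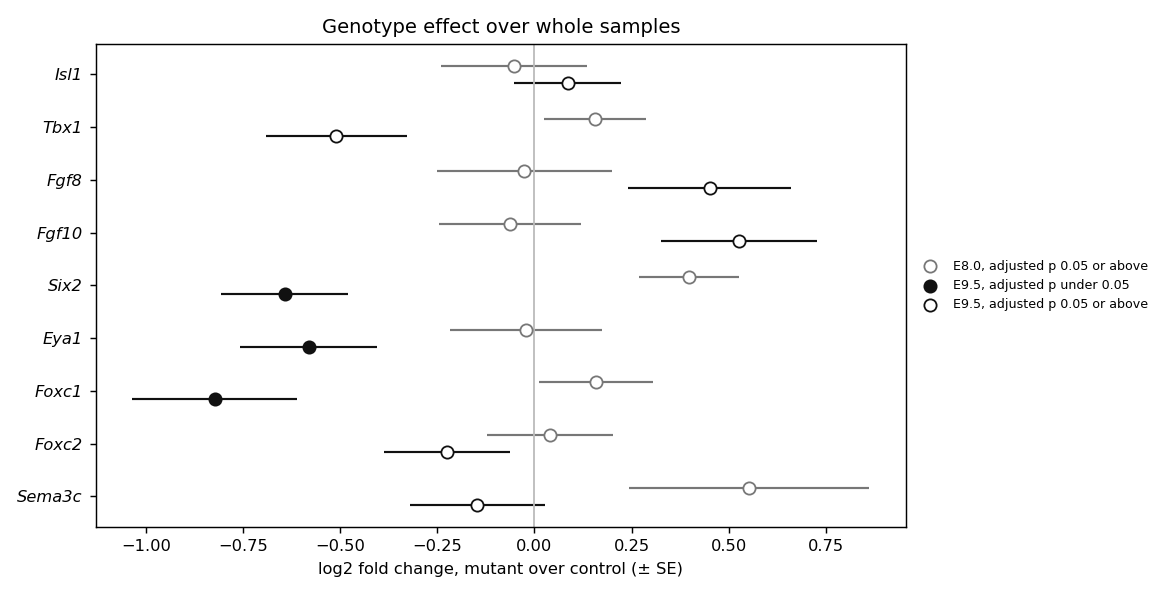
Log2 fold change, mutant over control, of each gene over whole samples (horizontal axis) at E8.0 in grey and at E9.5 in black; lines are 1 standard error and filled points passed the test. Six2, Eya1 and Foxc1 at E9.5 are the filled points, at -0.64, -0.58 and -0.82.

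In sums over whole samples, fewer cells of a type and less RNA per cell cannot be told apart, and tests inside cell groups and of shares of cells come further down. Markers of several cell types moved in the same samples, where 5.71% of all genes tested rose and 4.55% fell. Of 7 paraxial mesoderm markers tested at E9.5, 3 fell and none rose, and their summed level was 107 to 378 CPM in controls and 77.6 to 248 in mutants. Of 7 cranial mesoderm markers 3 fell and 1 rose (260 to 783 CPM in controls, 379 to 651 in mutants). Foxf2 and Foxd1, forkhead relatives, fell (log2 fold changes of -1.03 and -0.93, adjusted p = 0.0118 and 0.0146, edgeR). Foxd1 is also on the paraxial and the cranial list and is counted among the 3 that fell on each. Of 8 proepicardial markers 4 rose, with 7.44 to 93.5 CPM in controls and 111 to 162 in mutants. Tbx5 (log2 fold change 0.68), Hoxb1 (0.59) and Gata4 (0.79), on the posterior second heart field list, rose, and the list summed to 147 to 595 CPM in controls and 222 to 612 in mutants. Calls on the anterior second heart field list went in both directions, with Wnt11 (log2 fold change 0.77), Mef2c (0.499) and Bmp4 (0.42) among those that rose, and the list summed to 134 to 315 CPM in controls and 195 to 344 in mutants. Of 8 endoderm or epithelium markers only the keratin gene Krt19 passed (2.41, SE 0.18, adjusted p = 2.3e-06, edgeR), and their summed level did not overlap, at 7.44 to 48.2 CPM in controls and 111 to 356 in mutants. This sum includes Krt19, and a sum without it was not taken. The 7.44 CPM, here and for the proepicardial markers, was 1 UMI in control barcode 6, the sample of 6 cells. Of 7 lateral plate or allantois markers only Hoxc10 passed, at -1.88 (11.3 to 125 CPM in controls, 21.6 to 134 in mutants). No marker passed on the cardiomyocyte, pharyngeal muscle, endothelium, blood and neural lists, and on none of these lists was a marker at 0 in either group. The part of these shifts in the whole-sample levels of Six2, Eya1 and Foxc1 was not tested. Inside paraxial mesoderm-like cells, over all stages with stage and run as terms, Foxc1 was at -0.10 (SE 0.09, adjusted p = 0.819, edgeR) and Eya1 at 0.18 (SE 0.23, adjusted p = 0.903), neither past the threshold. Inside posterior second heart field-like cells Foxc1 was at -0.48 (SE 0.16, adjusted p = 0.149, edgeR). Inside the unnamed cluster 1, led by Gm14226, Lix1 and Hoxa5, Eya1 was at -0.64, Foxc1 at -0.70 and Six2 at -0.60. None passed (adjusted p = 0.177, 0.258 and 0.463, edgeR). In the unnamed cluster 18 the 3 were at 0.21, -0.22 and 0.31, again with no call. A fit of the same terms over whole samples gave -0.37 for both Foxc1 and Eya1. Paraxial mesoderm-like cells held 11.7% of Eya1 and 2.89% of Six2 UMIs, and Six2 was not tested there.

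At E8.0 no member passed, where 0.0244% of 16416 genes did. Six2 came nearest, and there it was higher in mutants, at 8.39, 8.99 and 9.32 CPM against 6.19, 6.30 and 6.69 in controls. The 2 groups did not overlap, and the log2 fold change was 0.40 (SE 0.13, adjusted p = 0.496, edgeR). The change of the genotype effect from E8.0 to E9.5 was -1.05 for Six2 (SE 0.24, adjusted p = 0.0586, edgeR), past no threshold, with 0.382% of 20672 genes passing. DESeq2 size factors gave 0.0416 and DESeq2 itself 0.00892, and the test passed also without any of barcodes 2, 3, 6, 7 and 21 (between 0.0149 and 0.0489). Without a filter on low counts it was -1.10 (0.0197), where Foxc1 passed too at -1.05 (0.0269). Over all stages together none of the 9 passed, where 10.2% of genes did, and the nearest was Eya1 at -0.37 (adjusted p = 0.0933), which passed without blood-like and endothelium-like cells (-0.41, adjusted p = 0.0368).

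Genes that work with the members were counted at E9.5 by list, where 5.71% of all genes tested rose and 4.55% fell. Of 12 cardiac partners of Isl1, 6 rose, among them Gata6 (log2 fold change 0.86), Tbx5 (0.68), Kdm6b (0.55) and Mef2c (0.499), and the median of the list was 0.42. Of 14 FGF pathway genes tested, only the ligand Fgf9 passed, at 0.85 (SE 0.20, adjusted p = 0.0163, edgeR). Of 9 genes for receptors and relatives of Sema3c, the coreceptor Nrp1 (0.72) and Plxna4 (0.84) rose. Of 13 genes of the Tbx1 network 3 rose, Cyp26b1, an enzyme that breaks down retinoic acid, by 2.09, Tbx3 by 0.62 and Smad7 by 0.54. On the list of forkhead relatives, Foxf2 and Foxd1 fell, as given above. The count of a further partner list is not reported here. Isl1, Fgf8, Fgf10, Sema3c and Tbx1 themselves did not pass in these same samples.

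The members were expressed in different places. Cells were clustered with the 9 genes left out, and a cluster was named only from markers that exclude them, with the ending -like. Isl1 had its highest means in 4 clusters: cardiomyocyte-like cluster 19, led by Tdgf1, Myh7 and Ankrd1, at 189 ± 81.7 CPM (SD over 8 samples), the unnamed cluster 17, led by Igfbpl1, Tlx1 and Edn1, at 176 ± 29.9 (SD over 7 samples), posterior second heart field-like cluster 2, led by Barx1, Cxcl13 and Osr1, at 131 ± 31.1 (SD over 10 samples), and cluster 18, also unnamed and led by Nrg1, Gm266 and Halr1, at 113 ± 28.6 (SD over 7 samples). Neighbours in this order overlapped in their ranges, and the 4 are not ranked here. At this clustering (resolution 1.0) no cluster took its name from the anterior second heart field list, of whose 10 markers the unnamed cluster 15 raised 5 and cluster 18 raised 4, and cluster 17 raised 4 of 7 markers of pharyngeal muscle progenitors. At resolution 2.0 a cluster of 252 cells, led by Igfbpl1, Lefty2 and Nrg1, was anterior second heart field-like with 6 of 10 markers, and a cluster of 171 cells, led by Tlx1, Kazald1 and Msc, was pharyngeal muscle progenitor-like with 7 of 7. The posterior second heart field name also depended on resolution: the cluster led by Barx1 had no name at 0.5, with 5 of 9 markers, and one led by Lhx1, as cluster 4 is here, had none at 2.0, with 5 of 9.

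The same clusters differed in the other members. Cluster 19 held Fgf8 (149.5 ± 50.5 CPM) and Sema3c (60.2 ± 47.4) and little Tbx1 (20.1 ± 10.3), Six2 (2.36 ± 2.13) or Eya1 (3.24 ± 2.42), each as SD over 8 samples. Cluster 17 held Tbx1 (200.5 ± 133.5), Fgf8 (130 ± 68.2), Fgf10 (47.9 ± 11.04) and Six2 (37.1 ± 6.74), SD over 7 samples. Cluster 18 held Tbx1 (199.7 ± 42.9), Six2 (61.5 ± 21.3), Eya1 (83.0 ± 35.2) and Sema3c (40.7 ± 13.3), SD over 7 samples. Cluster 2 held Isl1 with Fgf8 at 3.99 ± 4.25 CPM and Tbx1 at 21.4 ± 15.5, SD over 10 samples. Fgf8 was thus high beside Isl1 in clusters 17, 19 and 18 (115 ± 58.0 CPM, SD over 7 samples) and low in cluster 2. All cluster means and SDs given here pool genotypes and stages. In cluster 18 the mutant samples lay above the controls for Fgf8, as given further down.

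Paraxial mesoderm-like cells held 28.1% of all Foxc1 and 32.8% of all Foxc2 UMIs. The highest means of both were in paraxial mesoderm-like cluster 24, led by Aldh1a2, Wfdc21 and Tcf15, at 180.3 ± 8.73 and 283 ± 16.9 CPM (SD over 5 samples), where Isl1 was at 3.25 ± 1.90. Paraxial mesoderm-like cluster 0 was at 161 ± 30.4 for Foxc1 with Isl1 at 0.912 ± 0.939 (SD over 5 samples). Tbx1, Six2 and Eya1 were also found with little Isl1, in cranial mesoderm-like cluster 11, with 116 ± 33.8, 33.2 ± 11.4 and 43.9 ± 13.8 CPM and Isl1 at 10.5 ± 5.90 (SD over 4 samples). Foxc1 (101 ± 39.0 CPM) and Foxc2 (72.6 ± 30.8) were present there as well, and Foxc1 was at 92.7 ± 28.2 in cluster 18 (SD over 7 samples), beside Isl1. In blood-like cells all 9 members lay between 0.284 and 2.33 CPM, taken here as background.

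**Figure D3:**
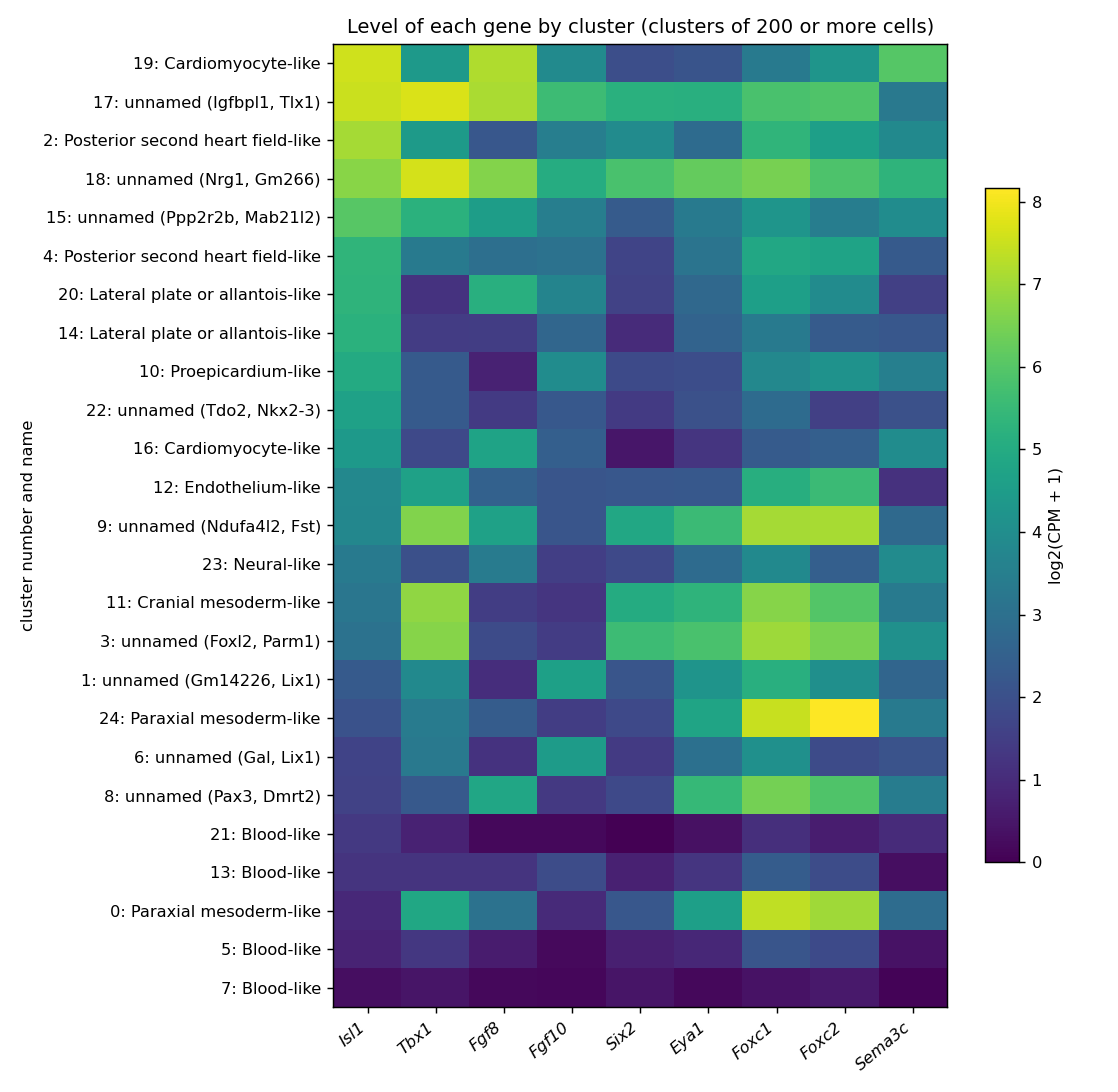
Level of each gene (columns) in each cluster of 200 or more cells (rows, by falling Isl1), as log2(CPM + 1) over all cells of the cluster; columns are to be read down, since levels are not comparable between genes. Isl1 is bright in clusters 19, 17, 2 and 18, and Foxc1 and Foxc2 in clusters 24 and 0.

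Summed counts of Fgf8, Sema3c, Fgf10, Tbx1 and Six2 were higher in Isl1-positive than in Isl1-negative cells, and those of Foxc1 and Foxc2 were lower. For this, every cell was thinned to 5000 UMIs, which left out 365 control and 82 mutant cells, and a cell was Isl1-positive with 1 or more Isl1 UMI. In 16 samples with 20 or more cells of each kind, 7 of the 8 other members passed the paired test on these sums, 5 higher and 2 lower, where 23.5% of 12005 genes passed, 10.2% higher and 13.3% lower. The shares of positive and negative cells given below are a description and were not tested against each other. The cluster levels show that the members differ between kinds of cell, and co-detection inside a cluster was not tested. Isl1 itself was detected at this depth in 0.316% of blood-like cells (median depth 28220 UMIs before thinning), against 28.4% of posterior second heart field-like cells (22687 UMIs).

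Fgf8 had the tightest link. It was detected in 22.2% ± 8.42 of Isl1-positive and 5.18% ± 2.75 of Isl1-negative cells (SD, n = 16), and was higher in 16 of 16 samples. The summed counts gave a log2 difference of 2.34 (SE 0.13, adjusted p = 4.44e-18, edgeR). Its share among Isl1-positive cells was 27.0 to 35.7% over 6 E8.0 samples and 8.82 to 25% over 8 E9.5 samples, with no overlap.

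Sema3c followed, with 9.35% ± 6.92 against 2.74% ± 1.47 (SD, n = 16), higher in 15 of 16 samples, and a log2 difference of 1.75 (SE 0.16, adjusted p = 5.35e-12, edgeR). Here the stages ran in the opposite direction, from 0 to 5.71% of Isl1-positive cells at E8.0 to 7.25 to 22.6% at E9.5. These stage values share the rise of Sema3c and the fall of Fgf8 over whole samples and were not tested apart from them.

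Pooled over the samples of a group, Isl1-positive cells also lay in different clusters at the 2 stages. Large samples weigh most in these shares, and the spread between samples was not taken. The share of all cells in each cluster is not set beside them, so a shift particular to Isl1-positive cells is not shown. Of 226 such cells in E8.0 controls, 30.5% were in cluster 17, where Fgf8 was high, 29.6% in posterior second heart field-like cluster 4, where Fgf8 was at 6.91 ± 2.04 CPM (SD over 6 samples), 9.29% in cluster 19 and none in clusters 2 or 18. Of 512 in E9.5 controls, 7.81% were in cluster 17, none in cluster 4, 15.8% in cluster 19, 23.0% in cluster 2, where Fgf8 was low, and 12.3% in cluster 18. Mutant cells shifted in the same directions for clusters 17 (33.9 to 6.58%), 4 (19.3 to 0%), 2 (0.459 to 29.2%) and 18 (0 to 18.9%), and cluster 19 held 12.4 and 11.9%. The part of these shifts in the shares of Fgf8 and Sema3c was not tested.

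Tbx1, Fgf10 and Six2 had log2 differences near 1, each higher in 15 of 16 samples: 1.15 for Tbx1 (20.3% of positive and 8.95% of negative cells), 1.199 for Fgf10 (7.86% and 3.24%) and 1.14 for Six2 (7.74% and 3.25%). Eya1, the partner of Six2, was at 8.54% and 6.81%, and its log2 difference of 0.25 (SE 0.15, adjusted p = 0.254, edgeR) did not pass; at 10000 UMIs per cell it was 0.33 and did (adjusted p = 0.0222). Foxc1 was lower in Isl1-positive cells, 14.9% against 17.7%, with a log2 difference of -0.51 (SE 0.09, adjusted p = 3.66e-05, edgeR). Foxc2 was lower too, 11.6% against 14.1%, at -0.83 (SE 0.13, adjusted p = 4.50e-06, edgeR). Both were higher in 4 of 16 samples. At E8.0 alone Fgf10 (adjusted p = 0.0889), Six2 (0.232), Foxc1 (0.352) and Foxc2 (0.0855) did not pass, and at E8.5 alone Fgf10 (0.216), Six2 (0.0913) and Foxc1 (0.0749) did not, with the same direction each time (edgeR).

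**Figure D4:**
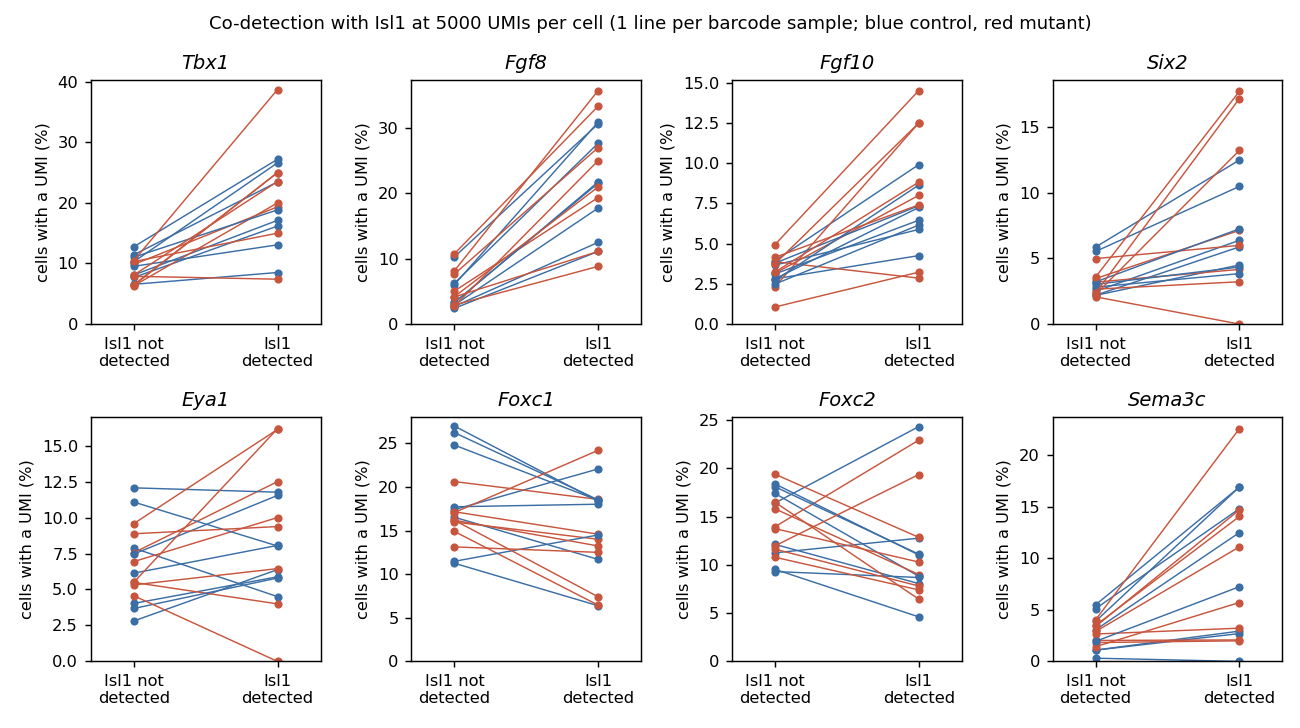
Percent of cells with a UMI of each gene (vertical axis, from 0) among cells without and with a detected Isl1 UMI at 5000 UMIs per cell; each line is 1 of the barcode samples, blue for control and red for mutant. Lines rise in all 16 samples for Fgf8 and fall in most for Foxc1 and Foxc2.

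Most Isl1-positive cells showed few other members at this depth. Of 1510 such cells, 650 (43.0%) had no UMI of the other 8, 432 had 1 other member, 247 had 2 and 181 (12.0%) had 3 or more. Tbx1 and Fgf8 were both found in 113 of them (7.48%), Fgf8 and Sema3c in 60 (3.97%) and Tbx1 and Sema3c in 49 (3.25%). A cell without a UMI may still express the gene, since 5000 UMIs sample only part of its RNA.

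Pairs of members can be ranked by the odds of meeting in a cell, taken per sample over 18 samples with 100 or more cells, as a description without a test. The highest was not a pair with Isl1 but Tbx1 with Six2, with a median log2 odds ratio of 3.25 (from 2.21 to 4.22) and 276 cells holding both. Isl1 with Fgf8 was next at 2.45 (from 1.66 to 3.56), then Isl1 with Sema3c at 2.08 and Six2 with Eya1 at 2.06, and further down Foxc1 with Foxc2 at 1.95. Just above the last lay 3 pairs of Fgf8, with Sema3c (2.03), Fgf10 (2.02) and Six2 (2.00). Foxc1 was also found with Eya1 (1.82), Six2 (1.35) and Tbx1 (1.201), each above 0 in 18 of 18 samples. The 5 pairs Tbx1-Six2, Isl1-Fgf8, Isl1-Sema3c, Six2-Eya1 and Foxc1-Foxc2 were each above 0 in 18 of 18 samples. That was not particular to them. Isl1-Tbx1, Tbx1-Fgf8, Tbx1-Eya1 and Fgf8-Six2 were so too, among others, and most pairs of members had a median above 0. The odds were taken over all kinds of cell together, blood-like cells included. Odds inside a kind of cell, and odds for pairs of other genes, are not set beside them. Isl1 with Foxc1 and Isl1 with Foxc2 were lowest, at -0.40 and -0.45, and above 0 in 4 and 5 samples.

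**Figure D5:**
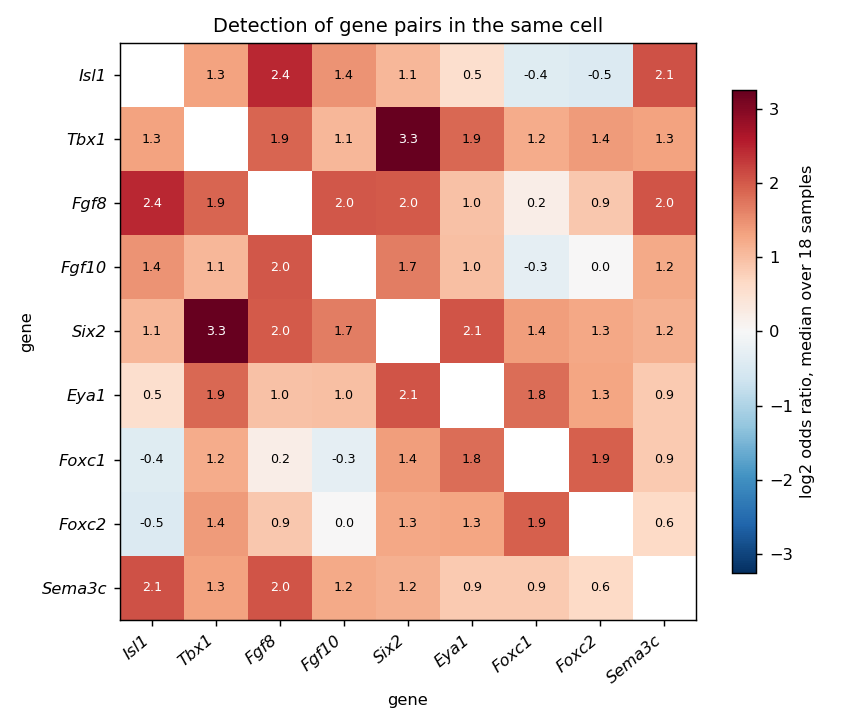
Median over 18 samples of the log2 odds ratio that 2 genes are detected in the same cell at 5000 UMIs per cell; red is above and blue below 0. Tbx1 with Six2 is the highest at 3.25, and the row of Isl1 is red for Fgf8 and Sema3c and blue for Foxc1 and Foxc2.

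Among all genes, those most raised in Isl1-positive cells were named by a rule: the 10 with the largest log2 difference at 20 CPM or more in the positive sums. Barx1, a homeobox gene of the stomach wall and pharyngeal arches, led at 3.46, at 182 CPM in positive and 14.4 in negative sums. Kazald1 (3.14), Tlx1 (3.11), Rgs5 (2.42) and Prdm1 (2.36) followed, then Fgf8 (2.34), Nrg1 (2.11), Armh4 (2.00), Ntng1 (1.97) and Igfbpl1 (1.93). Without the floor on level, Fgf8 ranked 17 of 12004 genes, Sema3c 45, Fgf10 143, Tbx1 163 and Six2 165, while Eya1 ranked 2294, Foxc1 11318 and Foxc2 11644. Of the partner lists, set against 10.2% of all genes higher and 13.3% lower, 9 of 12 cardiac partners rose in Isl1-positive cells, among them Nkx2-5 (1.505) and Mef2c (1.495), and 6 of 14 FGF pathway genes rose, among them the FGF targets Etv4 (1.18), Etv5 (1.17) and Spry2 (0.91). On the SIX-EYA-DACH list 2 of 8 rose, Dach1 (0.61) and Eya4 (0.81). The other lists went both ways. Of 11 genes of the Tbx1 network 6 rose, among them the Wnt ligand Wnt5a (0.84) and Smad7 (0.69), and 2 fell, among them Flt4 (-1.78). Of 7 forkhead relatives 3 rose, among them Foxf1 (1.26) and Foxp1 (0.41), and 2 fell, Foxd1 (-1.92) and Foxd2 (-1.36). Of 9 receptors and relatives of Sema3c, Plxna4 (0.58) and Plxnb1 (0.60) rose, and Nrp1 (-0.46) and Plxnd1 (-1.35) fell.

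Within Isl1-positive cells no member was called different between genotypes. The test used 18 samples with 20 or more such cells, and none of the other 8 members passed where 1.13% of 15955 genes did. The values nearest the threshold were Foxc1 at -0.47 (SE 0.14, adjusted p = 0.0954, edgeR) and Eya1 at -0.37 (adjusted p = 0.319); DESeq2 called Foxc1 (0.0405). Six2, lower over whole E9.5 samples, was at 0.23 (SE 0.14, adjusted p = 0.444) in these cells over all stages. Its value over whole samples of all stages was -0.22 (SE 0.15, adjusted p = 0.403, edgeR). The genotype effect in Isl1-positive cells at E9.5 alone was not tested. The difference that Isl1 status made was also not called different between genotypes for any of the 8 members, with values from -0.14 for Fgf8 to 0.49 for Six2, where 0.025% of genes passed. The share of Isl1-positive cells holding each other member gave 0 of 8 in the two-sided exact permutation test within stage, with adjusted p from 0.693 up, and 0 of 9 members passed for the share of all cells. In these tests of shares the genotype labels were permuted across runs, so differences between runs were not taken out. At E9.5 alone, Fgf10 had the lowest p, with 1.69 percentage points more cells in mutants (two-sided exact permutation p = 0.00866, adjusted p = 0.0779, 6 mutant against 5 control samples).

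Inside cell groups only Fgf8 was called, in 2 clusters, at a share of tests near that over all genes. In 8 named classes, 48 tests of members gave 0 calls (6 with an unadjusted p below 0.05, edgeR), where 0.598% of all tests passed. Clusters without a name, outside these classes, held 71.4% of all Tbx1 UMIs, 71.3% of Six2, 68.9% of Eya1, 65.2% of Fgf10 and 55.2% of Fgf8. They also held 48.5% of Foxc1, 44.8% of Foxc2, 43.6% of Sema3c and 39.4% of Isl1 UMIs. Among the classes, Six2 was tested in posterior second heart field-like cells only. Leaving out 1 sample gave a call for Isl1 in cardiomyocyte-like cells (without barcode 27, -0.66, adjusted p = 0.0450) and for Foxc2 in proepicardium-like cells (without barcodes 3, 1 or 20, adjusted p = 0.0447, 0.0433 and 0.0195). Each cluster was then tested too, a step added after the data were seen, and 2 of 113 member tests in 19 clusters passed, both for Fgf8, where 1.18% of all tests did. An unadjusted p below 0.05 (edgeR) was reached by 21 of the 113. Isl1 did not pass at -1.12 in cluster 15 (SE 0.25, adjusted p = 0.0889, edgeR) or at -1.87 in cluster 14 (SE 0.46, adjusted p = 0.0899). Its value was positive, again with no call, in clusters 2, 12 and 18 (0.21, 0.22 and 0.42). In cluster 18, the unnamed cluster rich in Tbx1, Fgf8 was at 77.2 CPM in the E8.5 control, at 54.4, 73.8, 91.9 and 120 in E9.5 controls, and at 192 and 198 in the 2 mutant samples. The groups did not overlap, and the log2 fold change was 1.61 (SE 0.20, adjusted p = 5.93e-05, edgeR), where 5.87% of 8832 genes passed and 2.86% were higher. Both mutant samples were from run 1, where the controls were at 54.4 and 73.8. Leaving out any 1 of the 5 controls gave 1.41 to 1.87. Without either mutant sample the values were 1.63 and 1.55, from fits with 1 mutant sample, in which the spread comes from the controls alone and the lone mutant is assumed to vary like them.

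In cluster 8, unnamed and led by the myotome and dermomyotome genes Pax3, Dmrt2 and Tcf15, Fgf8 was at 32.1, 32.6 and 34.6 CPM in the 3 mutant samples. The controls were at 38.7 at E8.5 and at 12.6, 13.8, 38.5 and 49.5 at E9.5. The groups overlapped across runs, and in run 1, which held all 3 mutants, the controls at 12.6 and 13.8 lay below them. With run as a term the log2 fold change was 1.33 (SE 0.22, adjusted p = 0.0134, edgeR), where 2.87% of 9650 genes passed and 1.47% were higher, and without control barcodes 22 or 23 the adjusted p was 0.0989 and 0.105. Cluster 17, where Fgf8 and Isl1 were both high, gave no call for any of the 9 members, with 0.0481% of genes passing. Fgf8 was at -0.35 there, at -0.65 in cluster 4, -1.20 in cluster 15 and -1.52 in paraxial mesoderm-like cells. It was at 0.58 in cluster 20 and 0.20 in cluster 19, and none of these values passed.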

How the data were processed

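Single cells were tagged with MULTI-seq lipid barcodes and read with 10x v3 chemistry. The authors deposited raw UMI counts per gene and cell, with each cell's total count, mapped with kallisto and bustools per the labels; GRCm38, Cell Ranger and bustools 0.46.1 are named in the submitters' processing notes. Filters on cells, annotation and use of strand are not given in the sources used here. Run, stage and genotype of a cell came from the authors' table.

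Counts were summed per barcode sample and tested with edgeR 4.0.16 quasi-likelihood tests (filterByExpr, TMM, Benjamini-Hochberg adjustment over all genes, threshold 0.05, R 4.3.3), with run as a term in genotype tests over more than 1 run. The scripts were tested on simulated counts with 1 fixed spread for all genes. Of simulated log2 changes of 1, 46% were recovered in the genotype by stage interaction and 52% in the interaction of Isl1 status with genotype. The other fits recovered 78 to 92%. Interactions of that size can thus be missed. DESeq2 1.42.0 was an alternative. Clusters were made without the 9 members, from 2000 variable genes (scanpy 1.11.5; leidenalg 0.10.2). Doublet calls (79 cells, 0.535%) were kept, and left out as an alternative. Pairs and co-detection used cells thinned to 5000 UMIs. Shares were compared by two-sided exact permutation within stage, across runs. Intervals are exact Poisson and cover counting error only.

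The members and the lists were chosen with earlier results of these data known. The counts of 3 lists at E9.5 are not reported here. Named genes were the 9 members, up to 4 genes per partner list past the threshold by smallest adjusted p, and the 10 genes most raised with Isl1. Coordinates are from GENCODE M21, and promoter sequences from RefSeq on GRCm38.p6.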

Additional observations from a re-analysis of the deposited data

Results flagged for a closer look

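In 18 groups of E9.5 samples (9 genes by 2 genotypes), 3 held a sample far from the rest, where chance marks about 1 in 20 groups. Isl1 and Tbx1 were each at 0 CPM in control barcode 6, which has 6 cells and 134457 UMIs, so that 3 UMIs would be 22.3 CPM. Foxc1 was at 3.23 CPM (3 UMIs) in mutant barcode 5, a sample under 60 cells.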

How the results depend on the processing

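Of 2749 recomputed values of single members, 67 lost and 30 gained a call, and no called value changed sign; in the 1897 of them from fits outside the named classes, 72 changed sign where neither value was called. The numbers of genes called moved by more than 1.5 times as follows. With DESeq2, the genotype effect gave 3274 genes over all stages, 45 at E8.0 and 2701 at E9.5, the interaction 367, E9.5 against E8.5 1659 and Isl1-positive cells 757. With no filter on low counts, E8.0 gave 35, the interaction 335 and E9.5 against E8.5 31. With the Y-linked level as covariate, all stages gave 471 and E8.0 0 (454 at an unadjusted p under 0.05, edgeR). Without E9.5 samples, all stages gave 1. At E9.5, run 3 alone gave 58, and run 2 alone 176, from 1 mutant sample of 57 cells against 2 controls, 1 of them of 6 cells, so that the spread there comes from the controls alone. Run 1 alone gave 32 for the interaction, and leaving out blood-like and endothelium-like cells 120. Control samples alone gave 651 for E9.5 against E8.0. With run as a term, E8.5 against E8.0 gave 131 and E9.5 against E8.5 0 (1141 at an unadjusted p under 0.05, edgeR); that comparison gave 53 with DESeq2 size factors and 417 without blood-like and endothelium-like cells. Requiring 2 Isl1 UMIs gave 69 genes for genotype in Isl1-positive cells. Isl1-positive against negative cells gave 4257 at 10000 UMIs, 6258 without thinning, 722 at E8.0, 618 at E8.5 and 1702 at E9.5; its interaction with genotype gave 27 at E9.5, 0 at E8.0 (436 at an unadjusted p under 0.05, edgeR) and 1 at 10000 UMIs. The cause was not tested.

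Leaving out 1 sample at a time gave 1259 to 2479 genes over all stages, 1 to 10 at E8.0, 603 to 2353 at E9.5, 34 to 116 for the interaction, 2965 to 4483 for E9.5 against E8.0, 510 to 4213 for E8.5 against E8.0, 0 to 2290 for E9.5 against E8.5, 1 to 522 in Isl1-positive cells, 2391 to 2840 for Isl1 status and 0 to 0 for the shares. No paired analysis was possible because the samples carry no replicate numbers shared between genotypes; this is about mutant against control samples, where stage and run were terms, and not about Isl1-positive against negative cells, which were paired by sample. Depth limits the samples under 60 cells and all shares at 5000 UMIs per cell.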

Other observations

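The E7.5 control sample of 28 cells entered no stage comparison. It held Tbx1 at 32.2 CPM (16 UMIs), Foxc1 at 22.2 CPM (11 UMIs), Foxc2 at 6.04 CPM (3 UMIs), Sema3c at 4.03 CPM (2 UMIs) and Isl1 at 2.01 CPM (1 UMI). No UMI of Fgf8, Fgf10, Six2 or Eya1 was counted.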
